A study of Saccharomyces cerevisiae with 20 samples.

Results

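The 4 ribosome profiling libraries of Rli1-depleted budding yeast, labelled RLI1_depl, were compared with the 4 libraries labelled hrc1D. They were chosen by their titles and are 8 of the 20 libraries of the series. The label hrc1D resembles HCR1, the gene of eIF3j, and the deposited files of these libraries spell it hcr1D. All 8 came from fmt1 cells of Saccharomyces cerevisiae, which lack the yeast's own methionyl-tRNA formyltransferase gene FMT1. They expressed an E. coli formyltransferase, labelled EcFMT, or the form of it labelled R42L, so each strain held 2 EcFMT and 2 R42L libraries. Cells grew at 30 °C in SC medium to an A600 near 0.5, were vacuum filtered and snap frozen, and RNase I footprints were taken from the 80S fraction of a sucrose gradient. The labels do not say how, or for how long, Rli1 was depleted. Nor do they say that replicates came from separate cultures, and the spread behind each p-value may be technical. The 4 NIP1_depl libraries, from a strain depleted of the eIF3c subunit Nip1 and carrying the same 2 enzyme forms, served as the other depletion strain.

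Rli1, called ABCE1 in animals, is an iron-sulfur cluster ATPase. After a peptide has been released at a stop codon, it splits the 80S ribosome into its subunits so that they can be used again. Hcr1, or eIF3j, is a loosely bound partner of the initiation factor eIF3 that also takes part in termination and in recycling. In yeast low in Rli1, ribosomes are known to remain at stop codons and to enter the 3′ untranslated region, and ribosomes beyond stop codons have been described in cells without Hcr1 as well. The comparison asks what loss of the recycling ATPase shows that loss of eIF3j does not.

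A pair of facts about the deposited tables limits every value below. First, 92.0% of the counts of the 8 libraries lay on 686 open reading frame (ORF) features that RefSeq does not hold, and 75.6% lay on 56 of these that lie opposite a known gene. Counts under a RefSeq gene's own name are correspondingly few, and they are reported as counts on that feature, not as translation of the gene. RLI1 (IV, 626708 to 628534) held 0 counts in all 8 libraries, which allows up to 0.000344% of the hrc1D counts and 0.000793% of the RLI1_depl counts. HCR1 (XII, 538792 to 539589) held 0 counts in hrc1D and 1 in RLI1_depl. NIP1 (XIII, 892988 to 895426) and FMT1 (II, 202056 to 203261) held 0 in both strains, and ARF1 (IV, 116321 to 116866), which the label of another strain names, held 1.5 and 0.5. In NIP1_depl the counts were 0 for RLI1, 2 for HCR1, 2 for NIP1, 0 for ARF1 and 0 for FMT1, so neither the depletions nor the deletion could be checked.

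Second, depth went with strain. Total expected counts were 271972 and 274712 in hrc1D with EcFMT, 171995 and 153501 in hrc1D with R42L, 92583 and 123204 in RLI1_depl with EcFMT, and 58090 and 104382 in RLI1_depl with R42L. The shallower RLI1_depl libraries nevertheless spread over more features, with 2576 to 3179 ORF features holding a count against 1674 to 2284 in hrc1D. Trimmed-mean (TMM) scaling factors were 1.62 to 1.82 in RLI1_depl and 0.564 to 0.597 in hrc1D, so that plain library totals moved the median log2 difference up by 1.47 against TMM. Log2 differences are therefore given as RLI1_depl minus hrc1D under TMM, and a feature is said to have risen or fallen only where edgeR's quasi-likelihood test called it the same way (Benjamini-Hochberg adjusted p under 0.05) with TMM, with RLE size factors and with library totals. Either word compares RLI1_depl with hrc1D and does not say which strain changed. Depth, scaling and strain cannot be told apart.

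RefSeq ORFs took a larger share of the footprints in RLI1_depl. The 5896 RefSeq ORFs that no RefSeq ORF overlaps on the other strand held 2.57%, 2.53%, 2.12% and 2.42% of the counts in the hrc1D libraries. In RLI1_depl they held 13.0% and 13.5% with EcFMT and 17.8% and 17.5% with R42L. No library of one strain came near the other. The 95% Wilson intervals of these shares were at most 0.6 percentage points wide and cover counting error only. The mean was 15.5% ± 2.55 (SD, n = 4) in RLI1_depl and 2.41% ± 0.206 (n = 4) in hrc1D, a 6.41-fold difference (two-sided exact permutation test, p = 0.0286, the smallest that 4 against 4 can give, 0.0364 after adjustment over 14 comparisons). NIP1_depl lay between them at 8.04% ± 0.176 (n = 4), 1.92-fold below RLI1_depl (exact permutation p = 0.0286, adjusted 0.0364). RLI1_depl with EcFMT stood below RLI1_depl with R42L in both replicates.

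Within that class, the RLI1_depl level per ORF was highest, among the bins compared here, where the stop codon lies within 100 nt of the stop codon of a neighbour on the other strand. These bins were drawn after the data were seen. RefSeq ORFs were sorted by the distance between their own stop and the facing stop, with both ORFs of a facing pair as members, so that the members of a pair share a region. In RLI1_depl the 369 ORFs with 0 to 100 nt between the stops held 3.97 ± 0.566 counts per ORF per 100000 library counts (SD, n = 4). The level was 2.92 ± 0.572 for the 916 ORFs above 100 and up to 200 nt, 2.20 ± 0.398 for the 1111 above 200 and up to 400 nt and 2.14 ± 0.415 for the 662 above 400 nt. In hrc1D the same 4 bins held 0.250 ± 0.0377, 0.295 ± 0.0546, 0.283 ± 0.0348 and 0.401 ± 0.0494, so the nearest of the 4 bins was lowest there. In NIP1_depl they held 1.03, 1.03, 1.15 and 1.24, nearly level over the distances. The 2838 RefSeq ORFs with no facing stop held 2.63 ± 0.397 in RLI1_depl, 0.517 ± 0.0335 in hrc1D and 1.63 ± 0.0275 in NIP1_depl (n = 4 each), in RLI1_depl above the bins beyond 200 nt and below the nearest bin. Most RefSeq counts lay outside the nearest bin, which held 1.47% of the RLI1_depl counts. Outside the class without overlap, 46 ORFs overlap a facing ORF at their 3′ ends. They held 13.5 ± 0.957 counts per ORF per 100000 in RLI1_depl, 5.03 ± 0.249 in hrc1D and 3.48 ± 0.256 in NIP1_depl (n = 4 each). In each of these strains that was above all 4 bins.

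**Figure D1:**
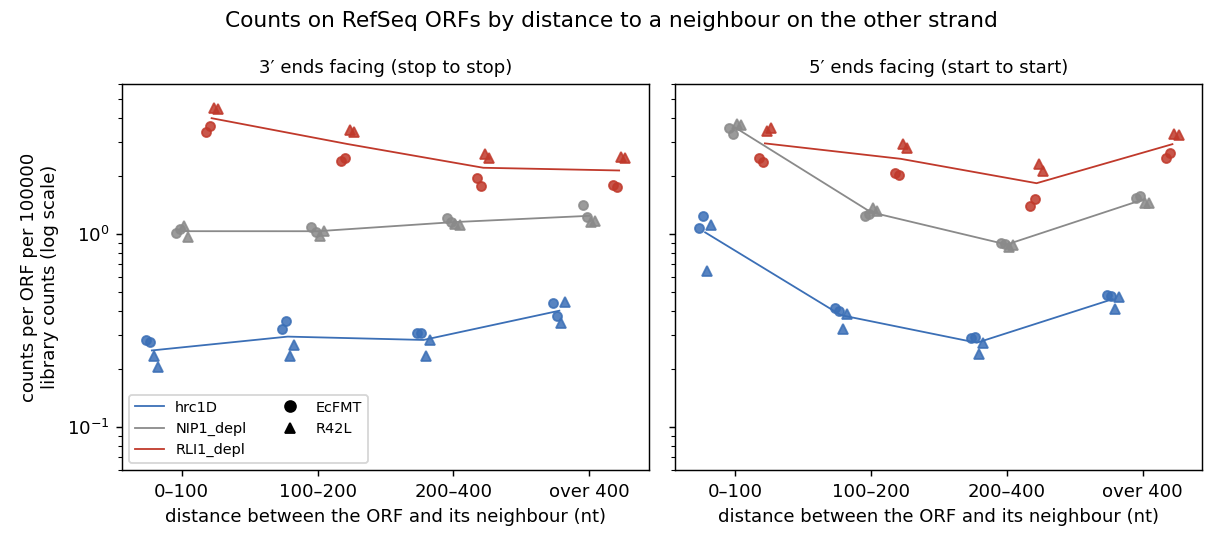
Counts per RefSeq ORF per 100000 library counts (log axis) against the distance in nt to a facing neighbour, stop to stop on the left and start to start on the right. Points are libraries (circles EcFMT, triangles R42L) and lines join the means of 4 libraries per strain: in the left panel RLI1_depl is highest at 0 to 100 nt (3.97) and hrc1D lowest there (0.250), and in the right panel NIP1_depl is above RLI1_depl at 0 to 100 nt.

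A ratio within each library, the level of the 0 to 100 nt bin over that of the bin above 400 nt, does not depend on scaling factors. It was 1.88 and 2.06 in RLI1_depl with EcFMT and 1.79 and 1.78 with R42L, against 0.648, 0.742, 0.676 and 0.458 in the hrc1D libraries. Every RLI1_depl library was above 1 and every hrc1D library below it. The means were 1.88 ± 0.128 and 0.631 ± 0.122 (SD, n = 4 each), a 2.97-fold difference (two-sided exact permutation p = 0.0286, adjusted 0.0364). Like the bins, the ratio was chosen after the data were seen. This p-value and those of the ratios below therefore describe these libraries and are not a planned test. NIP1_depl stood at 0.839 ± 0.0987 (n = 4), and RLI1_depl exceeded it 2.24-fold (exact permutation p = 0.0286, adjusted 0.0364). In strains not tested against RLI1_depl the ratio was 0.644 ± 0.0866 in arf1D (n = 4), 0.678 in MTF and 0.818 in MTFi (n = 2 each), the latter pair being labels that are not spelled out. For the bin above 100 and up to 200 nt the ratio was 1.37 ± 0.0294 in RLI1_depl and 0.740 ± 0.150 in hrc1D (n = 4 each, exact permutation p = 0.0286, adjusted 0.0364).

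**Figure D2:**
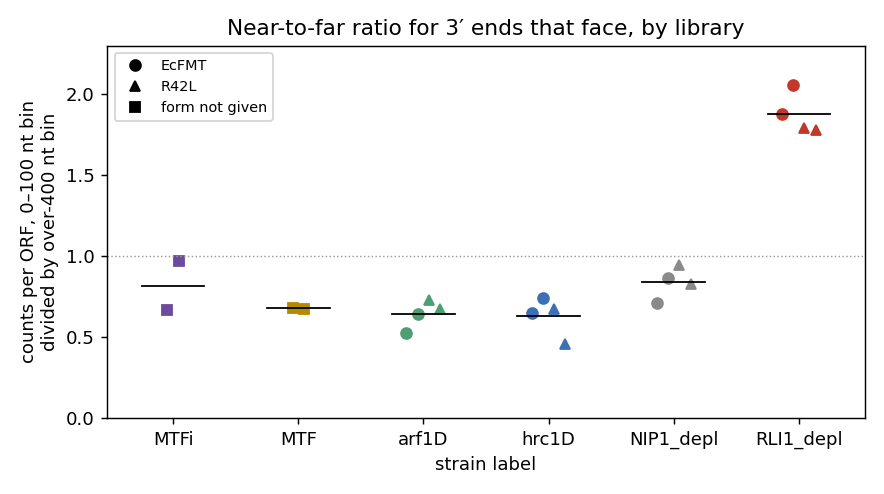
Ratio of counts per ORF in the 0 to 100 nt stop-to-stop bin to that in the bin above 400 nt, 1 point per library and a bar at each strain's mean. The 4 RLI1_depl libraries lie between 1.78 and 2.06, and the other 16 libraries lie at or below 0.970.

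The ratio was recomputed in several ways chosen after the data were seen. Per kb of ORF it was 2.22 in RLI1_depl and 0.745 in hrc1D, and without the 5 largest features of each bin it was 2.35 and 0.828. The share of ORFs with any count, which no abundant feature can carry, gave 1.96 and 1.10. The hrc1D libraries did not all stay below 1 in these versions. They reached 1.02 without the 5 largest features and lay at 1.01 to 1.14 by the share of ORFs with a count. RSEM divides a read that maps to several features, which leaves expected counts that are not whole. In the 0 to 100 nt bin, 22.4% of the values above 0 in RLI1_depl were not whole (tolerance 0.01), against 2.65% in hrc1D and 3.63% in NIP1_depl. Restricting the bins to ORFs with whole counts in all 8 libraries, 261 of 369 and 600 of 662, lowered the difference between the strains from 1.25 to 0.671. The ratio was then 1.33 ± 0.119 in RLI1_depl, at most 1.49, and 0.660 ± 0.0827 in hrc1D, at most 0.765, and the libraries still did not overlap (exact permutation p = 0.0286, n = 4 each). Whole counts were judged in these same 8 libraries, and the restriction removed a larger part of the near bin. This version therefore cannot show the difference free of divided reads.

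The higher counts near facing stops were spread over many ORFs. The share of library counts was higher in RLI1_depl than in hrc1D for 304 of the 369 ORFs at 0 to 100 nt (82.4%), lower for 16, and 49 had no count in either strain. Above 400 nt it was higher for 334 of 662 (50.5%), lower for 84, and 244 had no count. At least 10 counts were reached by 124 near ORFs in RLI1_depl and 17 in hrc1D, and by 88 and 50 ORFs above 400 nt. The hrc1D libraries were deeper in total. On RefSeq ORFs without overlap, however, RLI1_depl held 57299 counts and hrc1D 21307. The 5 largest ORFs carried 14.4% of the near counts in RLI1_depl. Only 49 of the 369 passed the filter on low counts and were tested singly.

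Several of these ORFs went from almost no count to 20 or more in most RLI1_depl libraries. YBR221W-A (II, 666538 to 666642), 77 nt from the stop of PCS60, held 40.4, 37.3, 43.3 and 77.2 counts in the RLI1_depl libraries and 0 in the 4 hrc1D libraries. CTF8 (VIII, 486230 to 486631), a subunit of a clamp loader for sister chromatid cohesion, lies 50 nt from the stop of the squalene synthase gene ERG9. It held 27.8, 49.9, 23.3 and 32.3 counts in RLI1_depl and 1, 0, 0 and 0 in hrc1D. The strains did not overlap at either ORF. TRM12 (XIII, 260221 to 261609), a tRNA modification enzyme facing the glyoxalase gene GLO1 at 95 nt, held 164.4 counts over the RLI1_depl libraries and 2 over those of hrc1D. TSC11 (V, 343320 to 347612), a subunit of the TORC2 kinase complex, held 152.7 and 5 counts and lies 87 nt from IES5. For KIN3 (I, 170396 to 171703), a protein kinase gene 100 nt from the adenine synthesis gene ADE1, the sums were 135.7 and 2. PTH2 (II, 112801 to 113427), a peptidyl-tRNA hydrolase gene 92 nt from SHP1, held 124.5 against 2. KRE29 (V, 226858 to 228252), of the Smc5-Smc6 complex, ends 3 nt from PHM8 and held 107.0 against 1.

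All 7 were called higher, but they were chosen for their RLI1_depl counts and held few in hrc1D. Their calls, and the lack of overlap at YBR221W-A and CTF8, are therefore a description and not a test. In NIP1_depl the 7 ORFs held 0, 2, 6, 5, 37, 2 and 5 counts in that order. Both ORFs of a pair could be higher. Some of these counts were not whole, and whether RSEM divided the same reads between the ORFs of a pair was not tested. VBA1 (XIII, 443414 to 445102) and PDL32 (XIII, 442527 to 443381), which end 32 nt apart, held 76.0 and 75.3 counts in RLI1_depl against 15 and 26 in hrc1D. ISR1 and YTH1, 45 nt apart on XVI, held 60.9 and 56.7 against 1 and 2. Not every near ORF was higher in RLI1_depl than in the other depletion strain. ALK1 (VII, 454785 to 457067), a haspin kinase gene facing GET1 at 95 nt, held 116.0 counts in RLI1_depl, 24 in hrc1D and 149 in NIP1_depl. SNO1 (XIII, 457285 to 457959), 23 nt from CTF13, held 100.0, 31 and 138, and EEB1 (XVI, 368071 to 369441), 52 nt from PNG1, held 63.0, 29 and 138 and was not called.

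**Figure D3:**
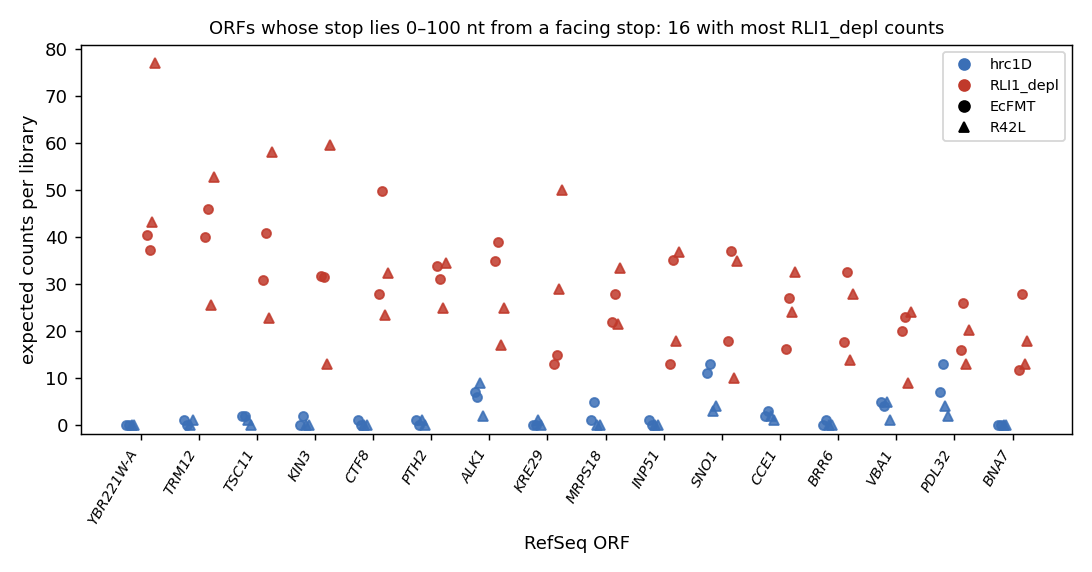
Expected counts per library of the 16 ORFs with most RLI1_depl counts among the 369 whose stop lies 0 to 100 nt from a facing stop, hrc1D in blue and RLI1_depl in red, circles EcFMT and triangles R42L. For ORFs such as TRM12 and CTF8 the hrc1D libraries hold 0 or 1 count and the RLI1_depl libraries 23.3 to 52.8, and the ORFs were chosen for their RLI1_depl counts.

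At facing 5′ ends the near-to-far ratio had the opposite order, while the level per ORF was again higher in RLI1_depl than in hrc1D. The 51 ORFs with 0 to 100 nt between their start and that of a neighbour on the other strand held 2.95 ± 0.608 counts per ORF per 100000 in RLI1_depl, 1.02 ± 0.262 in hrc1D and 3.56 ± 0.202 in NIP1_depl (SD, n = 4 each). Relative to ORFs above 400 nt the ratio was 1.00 ± 0.0805 in RLI1_depl, 2.19 ± 0.445 in hrc1D and 2.37 ± 0.234 in NIP1_depl. RLI1_depl was lower than either (exact permutation p = 0.0286, adjusted 0.0364 for each, n = 4), with the libraries at 0.895 to 1.08 against 1.56 to 2.60 in hrc1D. The ratio was 2.68 ± 0.222 in arf1D (n = 4), 2.96 in MTF and 3.76 in MTFi (n = 2 each), strains not tested against RLI1_depl. Above 100 and up to 200 nt between the starts, the ratio was 0.835 in RLI1_depl and 0.824 in hrc1D (163 ORFs, exact permutation p = 0.714, n = 4 each).

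The abundance of the facing gene was examined with 16 RefSeq ORFs whose stop faces that of a ribosomal protein, glycolytic or elongation factor gene within 200 nt. They held 0.0768% of the RLI1_depl counts, 0.0158% of the hrc1D counts and 0.0524% of the NIP1_depl counts, with 5 ORFs carrying 89.9% to 94.6% of them in these strains. The 4.88-fold difference from hrc1D (exact permutation p = 0.0286, adjusted 0.0364, n = 4 each) was smaller than the 6.41-fold difference of all RefSeq ORFs without overlap. The 16 ORFs all fall in the bin above 100 and up to 200 nt. The 916 ORFs of that bin held 2.68% of the RLI1_depl counts and 0.27% of the hrc1D counts, also a larger fold than that of the 16. No difference between these folds was tested. YAL037C-A (I, 73426 to 73518), 137 nt from the stop of the pyruvate kinase gene CDC19, rose from 12.4 to 97.8 counts (log2 2.68). SCS22, facing RPL32, held 52 and 65 counts (log2 0.02, adjusted p = 0.958, edgeR).

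Across single features, 823 passed the filter and 599 (72.8%) were called under TMM, with 356 higher (43.3%) and 243 lower (29.5%). Under RLE 388 were higher (47.1%) and 210 lower (25.5%), and under library totals 670 (81.4%) and 46 (5.59%). The same direction under all 3 scalings was found for 356 higher (43.3%) and 46 lower (5.59%) features. Libraries of the strains did not overlap at 524 features (63.7%). The features named below for the largest differences were drawn from these, so lack of overlap at them was a condition of choice. The median log2 difference of all tested features was 0.43 under TMM and 1.89 under library totals. With a minimum mean of 50 counts the balance turned, with 46 higher and 140 lower of 235 under TMM. Of the 5989 RefSeq ORFs only 433 passed the filter on low counts, 22 of them with 0 counts in hrc1D. An ORF that passed through its RLI1_depl counts alone had to differ, so the counts by class are a description. Of the 433 RefSeq ORFs, 294 rose (67.9%) and 5 fell (1.15%), and of 390 ORFs not in RefSeq 62 rose (15.9%) and 41 fell (10.5%). Against NIP1_depl, a comparison that uses the same RLI1_depl libraries, 467 of 851 features were called (54.9%), 258 higher (30.3%) and 209 lower (24.6%), or 401 (47.1%) and 114 (13.4%) under library totals. The strain difference itself differed between EcFMT and R42L at 14 of 971 features (1.44%).

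**Figure D4:**
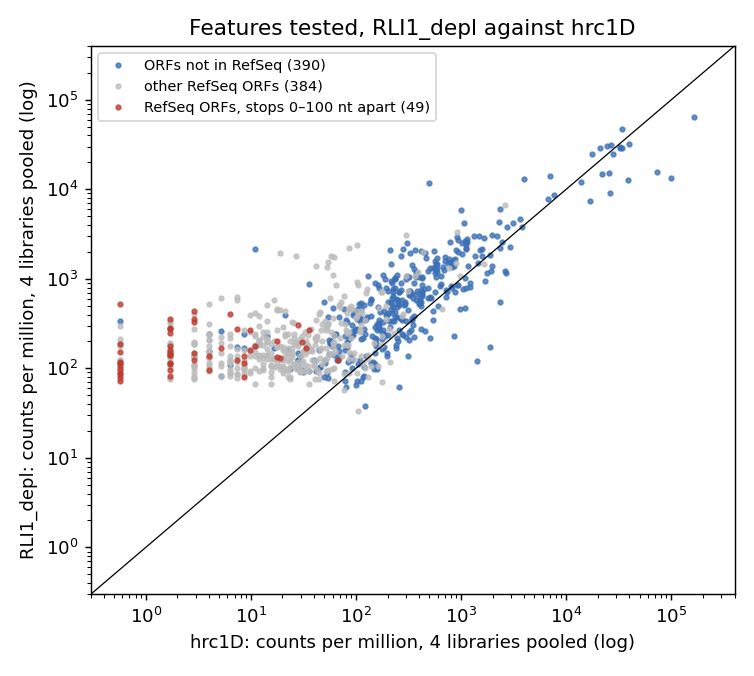
CPM in RLI1_depl against hrc1D (log axes, 4 libraries pooled per strain, 0.5 counts added) for the 823 features tested, by class, with the line of equality. RefSeq ORFs lie mostly above the line, the red ORFs with facing stops 0 to 100 nt apart mostly at the far left, and the blue features opposite the glycolytic genes lie below the line at the upper right.

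The most abundant features, those opposite glycolytic genes, fell. YCR013C, opposite the phosphoglycerate kinase gene PGK1, held 25803, 26180, 18748 and 15993 counts in the hrc1D libraries and 1127, 1582, 826 and 1482 in RLI1_depl. Its level was 101000 ± 6930 CPM, counts per 1e+06 library counts, in hrc1D and 13400 ± 1020 in RLI1_depl (SD, n = 4), a log2 difference of -4.40 (SE 0.08) under TMM and -2.92 under library totals (edgeR adjusted p = 1.26e-184 under TMM). YKL153W, opposite the phosphoglycerate mutase gene GPM1, stood at 73900 ± 4740 and 15800 ± 766 CPM, log2 -3.71 and -2.22. YAL037C-B, opposite CDC19, stood at 163000 ± 3580 and 64200 ± 1450, log2 -2.83 and -1.34. All 3 glycolytic features tested fell, beside 10.5% of ORFs not in RefSeq, the class they belong to. Their median was -3.71, against -0.48 over ORFs not in RefSeq and 0.43 over all features tested. In NIP1_depl the levels were 33900, 29000 and 77700 CPM, so the features opposite PGK1 and GPM1 stood lower in RLI1_depl (log2 -1.82 and -1.35 under TMM, -1.35 and -0.88 under library totals). The feature opposite CDC19 differed from NIP1_depl by -0.75 and -0.27.

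Features opposite 2 Hsp70 chaperone genes fell with them. YAL004W, opposite SSA1, held 37600 ± 3650 CPM in hrc1D and 12600 ± 483 in RLI1_depl (log2 -3.06, SE 0.08). YDL228C, opposite the ribosome-associated chaperone gene SSB1, held 26200 ± 1110 and 8900 ± 574 (log2 -3.04, SE 0.08). Of the 6 chaperone features tested, all of them ORFs not in RefSeq, 5 were called lower under TMM. That class had a median log2 of -0.48 under TMM, and 29.5% of all features tested were lower. The features opposite SSA1 and SSB1 were the only 2 of the 6 that fell under every scaling, beside 10.5% of ORFs not in RefSeq. The features opposite the cyclophilin gene CPR6 and the chaperonin gene CCT6 gave -1.12 and -1.54 under TMM and 0.36 and -0.05 under library totals.

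Among the features opposite or next to ribosomal protein genes, 15 were tested. Under TMM 14 were lower and 1 higher, under library totals 7 were higher and 8 lower, and 8 fell under every scaling. Of all features tested, 29.5% were lower under TMM and 5.59% fell under every scaling. Among ORFs not in RefSeq, the class of these 15, 10.5% fell under every scaling. The list's median log2 was -1.62 under TMM and -0.14 under library totals. It was -0.48 and 1.00 for ORFs not in RefSeq, and 0.43 and 1.89 for all features. The 4 with the smallest p were YPL197C opposite RPL7B (-2.64), YLR062C opposite RPL22A (-2.26), YPL142C opposite RPL33A (-2.04) and YGL102C opposite RPL28 (-1.74), each with an SE of 0.07 to 0.09. YPL197C held 16700 ± 1300 CPM in hrc1D and 7500 ± 630 in RLI1_depl (SD, n = 4). YLR076C, opposite RPL10, fell by 1.62 under TMM and 0.14 under library totals, and YPR044C, opposite RPL43A, by 1.66 and 0.17. The feature opposite the stalk protein gene RPP0, YLR339C, turned with the scaling, from -1.08 under TMM to 0.41 under library totals. Its share of the counts was 34600 ± 2380 CPM in hrc1D and 46100 ± 5270 in RLI1_depl.

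**Figure D5:**
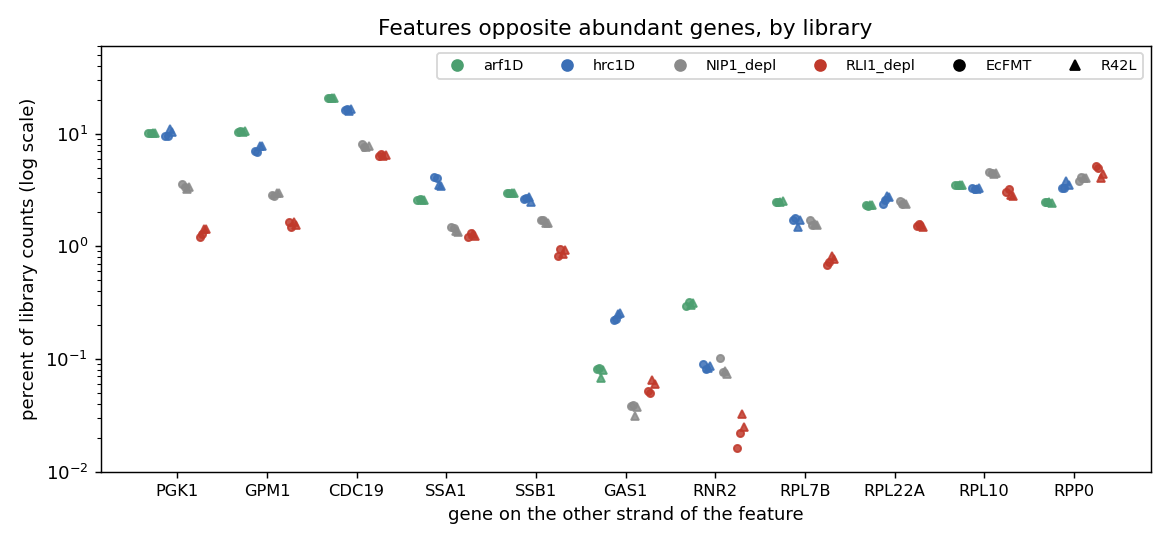
Percent of library counts (log axis) on features opposite 11 abundant genes in arf1D, hrc1D, NIP1_depl and RLI1_depl, 1 point per library, circles EcFMT and triangles R42L. The features opposite PGK1, GPM1 and CDC19 are lowest in RLI1_depl, and the feature opposite RPP0 is higher in each RLI1_depl library than in any hrc1D library when taken as a share of the total.

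Other features fell by more than those of the glycolytic genes or by about as much. YLR286W-A, a feature with the chitinase gene CTS1 and RPS30A among its neighbours on the other strand, held 403, 408, 242 and 179 counts in hrc1D and 16, 8, 8 and 13 in RLI1_depl, log2 -5.00 (SE 0.19). YLR349W, next to the mitochondrial dicarboxylate carrier gene DIC1, held 525, 470, 326 and 310 against 13, 23, 8 and 21, log2 -4.93 (SE 0.17). The strains did not overlap at either feature, which was a condition of naming them. Both were low in NIP1_depl too, at 137 ± 36.9 and 265 ± 48.7 CPM (SD, n = 4), beside 125 ± 44.9 and 166 ± 32.3 in RLI1_depl. YLR286W-A stood at 1380 CPM in hrc1D, 182 in arf1D (n = 4 each), 125 in MTF and 116 in MTFi (n = 2 each). At this feature hrc1D was the strain that stood apart. YLR349W stood at 1890, 544, 1150 and 1080 CPM in the same strains. YMR307C-A, opposite the cell wall glucanosyltransferase gene GAS1, fell by 3.56. It stood at 2380 CPM in hrc1D, 777 in arf1D (n = 4 each), 488 in MTF and 548 in MTFi (n = 2 each), so hrc1D was the highest strain. Against NIP1_depl (568 and 363 CPM) it differed by 0.15 under TMM (adjusted p = 0.51, edgeR) and by 0.62 under library totals (adjusted p = 0.0035). YJL026C-A, opposite the ribonucleotide reductase gene RNR2, fell by 3.36 and did stand lower than in NIP1_depl (log2 -2.30, adjusted p = 6.3e-16, edgeR). YPR123C, between AXL1 and the copper transporter gene CTR1, and YOR108C-A, near the leucine synthesis gene LEU9, fell by 3.56 and 3.15.

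Only 5 RefSeq ORFs fell under every scaling. SPC25 (V, 191959 to 192624), a kinetochore subunit of the Ndc80 complex, held 31, 30, 12 and 17 counts in hrc1D and 1, 5, 1 and 5 in RLI1_depl, log2 -3.11 (SE 0.44). ARO10 (IV, 1234218 to 1236125), the phenylpyruvate decarboxylase of aromatic amino acid breakdown, held 55, 43, 25 and 30 against 3, 10, 5 and 8, log2 -2.81 (SE 0.32). YCR050C and YFR035C fell by 2.21 and 1.96. The strains did not overlap at these 4 ORFs. Mean CPM at each of them was nevertheless higher in RLI1_depl than in arf1D, MTF and MTFi, strains not tested here. SPC25 stood at 29.1 in RLI1_depl, 3.18 in arf1D (n = 4 each), 5.71 in MTF and 1.02 in MTFi (n = 2 each). ARO10 stood at 69.1, 17.4, 36.2 and 26.2 in the same strains. In NIP1_depl the mean was above hrc1D for SPC25 and YFR035C and below RLI1_depl for ARO10 and YCR050C. The remaining ORF, MOR1 (YDR366C), fell by 2.22 with libraries that overlapped, and is named here after its values were seen. The other 6 largest decreases under TMM, YDL159W-A, APQ13, ICS3, YGR018C, the heat shock factor gene HSF1 and YER145C-A, lay between -1.64 and -2.09. They lost their call under library totals, where they lay between -0.62 and -0.16.

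Among RefSeq ORFs, the 10 with the largest fitted increases held 0 counts in all 4 hrc1D libraries, so only a lower bound can be given and their order is not known. They passed the filter on low counts through their RLI1_depl counts alone, so the bounds are a description and not a test. Each bound here and below allows for counting error in hrc1D but not in RLI1_depl. With a floor of 3 counts over the hrc1D group, YBR221W-A was at least 54.1-fold higher under TMM scaling and at least 151-fold by library totals. SCP160 (X, 285558 to 289226), an RNA-binding protein that associates with polysomes, held 13, 25.2, 31 and 43.0 counts in RLI1_depl, at least 30.8-fold higher. The libraries of the strains did not overlap, as the choice of these 10 required. TOS1 (II, 563203 to 564570), a cell wall protein gene, held 17, 14, 17 and 33 counts and was at least 22.3-fold higher. It held 63 counts in NIP1_depl, from which RLI1_depl differed by 0.46 under TMM (adjusted p = 0.19, edgeR) and by 0.93 under library totals (adjusted p = 0.0061). EFG1 (VII, 1037800 to 1038501), a ribosome biogenesis gene 105 nt from the facing stop, was at least 19.8-fold higher, BNA7 (IV, 1323454 to 1324239), a kynurenine pathway enzyme 67 nt from the stop of RPN9, at least 19.5-fold and the kinase gene FRK1 at least 18.1-fold. EMC3 (XI, 48194 to 48955), a subunit of the ER membrane complex 50 nt from ADD66, was at least 15.7-fold higher. ORC6 (VIII, 344321 to 345628), of the origin recognition complex and 52 nt from TOM71, was at least 11.8-fold higher. YLR264C-A and YGL039W were at least 12.6-fold and 12.9-fold higher. In NIP1_depl 5 of these 10 ORFs held 0 counts, namely YBR221W-A, EFG1, BNA7, ORC6 and YLR264C-A.

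Among features RefSeq does not hold, YBR056C-B, between MRX18 and MNC1, stood out by its abundance. It held 134, 150, 69 and 76 counts in hrc1D and 1172, 1727, 560 and 1014 in RLI1_depl, or 484 ± 60.3 and 11500 ± 2190 CPM (SD, n = 4). The log2 difference was 3.09 (SE 0.12) under TMM and 4.57 under library totals. NIP1_depl stood at 178 ± 62.7 and arf1D at 625 ± 40.6 CPM, and RLI1_depl exceeded NIP1_depl by 5.53 on the log2 scale (adjusted p = 7.6e-46, edgeR). YHR049C-A, near FSH1 and the metal transporter gene SMF2, held 2, 2, 0 and 5 counts in hrc1D and 143.6, 184.3, 168.3 and 310.9 in RLI1_depl, log2 6.08 (SE 0.27). YMR119W-A, between SHH3 and the purine synthesis gene ADE17, held 0 counts in hrc1D and 53.4, 49, 6.9 and 18 in RLI1_depl, at least 34.9-fold higher. YNL303W, next to RPS19B, held 3 counts in hrc1D and 92 in RLI1_depl, a ratio of 25.3 under TMM (95% counting interval 8.38 to 125). The rest of the 10 largest were YMR173W-A, next to the proteinase A inhibitor gene PAI3, YOR392W, YNL017C, next to the RNA-binding protein gene PUB1, YJL015C, YLR124W and YDL114W-A, with log2 differences of 2.71 to 4.30. Of these, YNL017C and YOR392W held 82 and 102 counts in NIP1_depl and were not called against it (log2 0.42 and -0.08 under TMM, 0.88 and 0.39 under library totals).

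The genes of termination and recycling themselves were barely covered. Of 15 such genes 1 passed the filter under its own name. GLE1 (IV, 88248 to 89864), an mRNA export factor that also acts in termination, held 2, 3, 1 and 1 counts in hrc1D and 18, 34, 16 and 32 in RLI1_depl, log2 3.46 (SE 0.48). It held 67 counts in NIP1_depl, from which RLI1_depl differed by 0.68 (adjusted p = 0.03, edgeR). YDR118W-A, next to TMA64, the yeast relative of the recycling factor eIF2D, rose from 8.99 to 65.5 counts, log2 2.51 (SE 0.53), and was not called against NIP1_depl (log2 0.13 under TMM and 0.60 under library totals). Among 15 genes of ribosome-associated quality control 1 was tested. It was RKR1, the ubiquitin ligase Ltn1, at log2 -1.15 under TMM and 0.32 under library totals. The feature opposite SKI8, of the Ski complex that unwinds mRNA for decay, gave -1.45 and 0.03, and no other gene of a list of 11 Ski complex and nonsense-mediated decay genes was tested.

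Translation factor genes could be followed at 3 features. YEL034C-A, opposite the eIF5A gene HYP2, held 34625 counts over the hrc1D libraries and 12281 over those of RLI1_depl, log2 -1.81 under TMM and -0.32 under library totals, and fell under every scaling. YOR277C, opposite CAF20, an inhibitor that binds eIF4E, fell by 2.09 and 0.61. YPL238C, opposite the eIF2 beta subunit gene SUI3, changed sign from -1.08 to 0.41. Of the 5 ribosome biogenesis features opposite or next to a gene, only YGR160W, opposite the nucleolin-like NSR1, fell under every scaling (-2.01). The features at NOP56 and HAS1 stood at -1.59 and -1.13 under TMM and -0.11 and 0.35 under library totals. Under its own name RPC19, a subunit shared by RNA polymerases I and III, rose from 3 to 35 counts, a ratio of 9.62 under TMM (95% counting interval 3.03 to 48.9), and RIO1 rose by 2.51.

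Rli1 carries iron-sulfur clusters, and the genes of iron uptake were examined for that reason. Of 36 iron genes 5 were tested under their own names, and 4 rose, beside 67.9% of all RefSeq ORFs tested, with a median of 1.54 beside 1.66. FET3 (XIII, 388822 to 390732), the ferroxidase of high-affinity uptake, held 3, 5, 0 and 1 counts in hrc1D and 23, 27, 14 and 26 in RLI1_depl, log2 3.03 (SE 0.48). It held 99 counts in NIP1_depl and the difference from that strain was 0.00 under TMM (adjusted p = 0.99, edgeR) and 0.47 under library totals (adjusted p = 0.13). FRE1, a metal reductase, CCC2, a copper transporter that supplies Fet3, and FTR1, the iron permease, rose by 1.79, 1.43 and 1.54. ERV1 stood at 1.01 and was not called. The feature next to GRX6 gave -0.54 under TMM and 0.95 under library totals, and that opposite the scaffold gene ISU1 gave 0.03.

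In amino acid metabolism ARO9 (VIII, 375709 to 377250), the aromatic aminotransferase, rose under its own name, as did the feature opposite it. Under its own name it held 0, 0, 1 and 0 counts in hrc1D and 25.9, 25.9, 20.4 and 34.3 in RLI1_depl, a ratio of 87.4 under TMM (95% counting interval 15.4 to 3483), and 0 counts in NIP1_depl. It lies 104 nt from a facing stop. The feature opposite it, YHR137C-A, held 263 ± 79.2 CPM in hrc1D and 2140 ± 223 in RLI1_depl, log2 1.54 (SE 0.15), but 6100 ± 232 in NIP1_depl (SD, n = 4). YHR137C-A held 2030 CPM in arf1D (n = 4), 1600 in MTF and 1100 in MTFi (n = 2 each), so hrc1D was the lowest strain. YER023C-A, opposite the proline synthesis gene PRO3, fell by 2.66, and YER090C-A, opposite the tryptophan synthesis gene TRP2, gave -1.89 under TMM and lost its call under library totals (-0.42). MET2 rose by 1.18 under its own name.

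Genes of meiosis, which are silent in vegetative cells, were covered more widely under their own names than any other list. Of 54 genes 16 were tested and 10 rose, beside 67.9% of all RefSeq ORFs tested, with a median of 1.04 beside 1.66. SPO74 (VII, 184153 to 185394), of the meiotic spindle pole, held 0 counts in hrc1D and 10.9, 17.9, 7 and 4.01 in RLI1_depl, at least 11-fold higher, and lies 68 nt from a facing stop. RIM4 (VIII, 56649 to 58790), a translational repressor of meiosis, held 7, 4, 3 and 4 against 27, 37, 43 and 60, log2 2.85 (SE 0.34). MER1, a meiotic splicing activator, and ZIP2, of the synaptonemal complex, rose by 1.55 and 1.65. DMC1, SPO13 and SPO77 were called lower under TMM, at -1.10, -0.80 and -0.73, DMC1 under RLE as well, and library totals gave 0.37 to 0.74.

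Few carbon and stress genes could be followed. Of 40 genes of respiration and carbon metabolism 3 were tested under their own names and 2 rose, beside 67.9% of all RefSeq ORFs tested. PCK1, the enzyme that starts gluconeogenesis, rose by 1.60. FBP1 rose by 0.85, and ICL1 stood at 0.65 and was not called (adjusted p = 0.227, edgeR). The feature opposite the isocitrate dehydrogenase gene IDH2 changed sign between scalings, from -1.31 to 0.17, and that opposite UGP1 gave -1.60 and -0.11. GPP2 and CTA1 rose by 1.43 and 0.92, and both, like FBP1, lost their call when some single libraries were left out (the lowest values were 1.02, 0.66 and 0.48).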

How the data were processed

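Ribosome footprints of 20 yeast libraries were deposited with an RSEM expected count per feature. The authors made each expected count with STAR 2.7.2b and RSEM 1.2.31 on build R64, per the submitters' processing notes, whose strand setting was not stated. Members, gene lists and opposite genes were chosen with earlier results of these data known. Expected counts of 4 RLI1_depl and 4 hrc1D libraries were rounded and tested with edgeR 4.0.16 (R 4.3.3) in a quasi-likelihood fit with enzyme form as covariate, TMM scaling, filterByExpr at a minimum of 10 counts and Benjamini-Hochberg adjustment over all features tested. The script was tested on simulated counts.

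Stops, starts and overlaps came from the RefSeq table of assembly R64, and single values were tested by exact permutation of the 8 libraries (scipy 1.17.1, two-sided). Opposite genes were assigned by hand to 56 features, and others by neighbours in systematic name order, worded as next to or between. Named features were, in each direction and class, the 10 largest log2 differences among called features with mean log2 CPM of 5 or more and libraries that did not overlap, up to 4 features of smallest p per list, the genes the labels name and 3 features of largest share. ORFs with facing stops 0 to 100 nt apart were named by their RLI1_depl counts, after values were seen. No replicate pair agreed within sampling noise (chi-square per degree of freedom 1.48 to 2.88). Alternatives were RLE factors, library totals, DESeq2 1.42.0, filters, subsets of libraries and a replicate block. Sequences are not shown.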

Additional observations from a re-analysis of the deposited data

Results flagged for a closer look

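The difference between the strains itself differed between EcFMT and R42L at 14 of 971 features (1.44%, edgeR interaction term, adjusted p under 0.05, with 110 at an unadjusted p under 0.05). The count was 6 without hrc1D EcFMT replicate 2, 28 without hrc1D R42L replicate 2, 5 without RLI1_depl EcFMT replicate 1 and 9 without RLI1_depl R42L replicate 1. Values are the log2 difference RLI1_depl minus hrc1D with EcFMT minus that with R42L.

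It was -2.74 for YER067C-A, opposite RGI1, which fell further with EcFMT (-3.55) than with R42L (-0.818), and -1.45 for its neighbour YER066C-A. APM3 (YBR288C), an adaptor complex subunit, gave -2.58 and was higher in RLI1_depl with either form (2.28 and 4.83). SCM4 (YGR049W) gave -1.73, with 2.79 and 4.50. The cyclin-dependent kinase inhibitor gene FAR1 (YJL157C) gave -1.66 and EMI1 (YDR512C) -0.88. Of the features not in RefSeq, YNL276C, near MET2, gave -2.05, YNL203C, opposite SPS19, -1.91, YNL057W -1.25, YIR017W-A, near MET28, -1.14 and YER107W-A, near GLE2, -0.99. The 3 features with a positive value were YDL023C, opposite GPD1, at 0.58, YLR339C, opposite RPP0, at 0.48 and YEL034C-A, opposite HYP2, at 0.38.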

How the results depend on the processing

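Of 81 named features 56 kept direction and call under every alternative run, and 78 did so without each library in turn; the exceptions there were GPP2, CTA1 and FBP1. Against hrc1D, library totals gave 670 higher and 46 lower of 823, a minimum mean of 50 counts 46 and 140 of 235, and fitting the features not in RefSeq alone 128 and 126 of 393. Against NIP1_depl the last 2 called 160 of 249 and 217 of 386, beside 467 of 851. The interaction called 28 features with RLE size factors, 6 without a filter, 6 at the minimum mean of 50 counts, and 9 among features not in RefSeq. The cause was not tested for any of these.

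Library totals reversed YDL011C to 0.95, YGL214W to 0.03, YLR217W to 0.36, YLR339C to 0.41, YMR247C to 0.32, YMR290W-A to 0.35, YOR135C to 0.17 and YPL238C to 0.41, beside a median shift of 1.47; fitting the features not in RefSeq alone moved YDL011C to 0.03.

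Leaving out 1 library at a time gave 369 to 424 higher and 228 to 258 lower features against hrc1D, 460 to 494 called against NIP1_depl, and 5 to 28 interactions. The RefSeq share differed by 12.3 to 13.9 percentage points, the share facing abundant genes by 0.0580 to 0.0666 and the near-to-far ratio by 1.19 to 1.28, all at p = 0.0571, the smallest exact permutation p that 4 against 3 allows. With EcFMT libraries alone they differed by 10.7, 0.0569 and 1.27 and with R42L alone by 15.4, 0.0653 and 1.22 (p = 0.333, the smallest that n = 2 against 2 allows by exact permutation). No ORF faces an abundant gene within 100 nt, so that alternative gave no value.

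A replicate block gave 350 higher and 244 lower against hrc1D, 442 called against NIP1_depl and 14 interactions. Replicate numbers did not pair the samples, since deviations of same-numbered libraries correlated at -0.17 to 0.28.

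With 58090 to 274712 counts a library, an ORF of few counts could not be followed singly; 49 of 369 near ORFs were tested.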
